A study of Mus musculus with 4 samples.

Results

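Regulatory T cells (Tregs) of ICOS FC mice were profiled in lymph nodes (LN) that drain the neck, taken 1 day after an oxazolone challenge, and in unchallenged spleen, and the 2 libraries were compared gene by gene. ICOS FC is the submitters' name for mice with ICOS-deficient Tregs on the C57BL/6 strain. The members were all cells marked KO in the challenged table and all cells marked as steady-state KO in the spleen table, 2066 LN cells and 5917 spleen cells, which made 7983 of the 14875 cells deposited. The same contrast in ICOS WT mice of that strain, 1897 LN cells against 4995 spleen cells, was used to show what differed in ICOS FC. All 4 libraries came from live CD4+ TCRβ+ YFP+ cells sorted at more than 95% purity and read with 10x Genomics 3' chemistry; the labels give neither the promoter behind the YFP reporter nor the part of Icos that was deleted, the age of the mice or how many mice went into a library. Tissue and challenge changed together, so an effect of oxazolone and a difference between LN and spleen cannot be told apart. Each group was 1 library, so no test was possible, and nothing here measures how far mice of 1 genotype differ.

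Tregs are CD4 T cells under the transcription factor Foxp3 that restrain other immune cells. ICOS, a relative of CD28, costimulates T cells through PI3 kinase and is abundant on effector Tregs, the activated fraction that leaves the resting, lymphoid-homing state. Oxazolone is a contact-sensitizing chemical that inflames the skin, and Tregs meet its effects in the nodes that drain the site. Immediate early genes such as Fos and Jun encode the AP-1 factors that cells switch on within minutes of a stimulus, while interferons, released during inflammation, induce a set of antiviral genes in most cell types.

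Icos itself, on chromosome 1 at 60977927 to 61000320 (GRCm38, GENCODE M21 annotation), went against the genotype labels. It stood at 928 CPM (UMIs per 1000000 of the library) in the LN library labelled ICOS FC and 258 in the spleen library, against 599 and 112 CPM in the libraries labelled ICOS WT. Icos was thus higher under the ICOS-deficient label in both tissues. A 3' read outside the deleted part would not report the deletion, so the level does not check the label, and an exchange of the genotype labels cannot be told from these files. "ICOS FC" and "ICOS WT" below are the labels of the libraries, and every direction between genotypes rests on them. Icos was 3.6-fold higher in the LN than in the spleen in the ICOS FC pair and 5.35-fold in the ICOS WT pair.

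The LN library held 17330489 unique transcript counts (UMIs) with a median of 6789 per cell, and the spleen library 28256866 with a median of 4361; the ICOS WT libraries had medians of 6591 and 5044. Ribosomal protein genes took 32.8% of UMIs in the LN and 38.8% in the spleen. Foxp3 was at 70.7 CPM in the LN and 59.0 in the spleen, with a UMI in 804 of 2066 and 1290 of 5917 cells. It was low in the deposited spleen cluster 4, at 6.38 CPM in 655 ICOS FC cells and 2.17 in 737 ICOS WT cells. Those cells were 11.1% and 14.8% of the spleen libraries, so the spleen side of each ratio holds a Foxp3-low part. In the other ICOS FC spleen clusters Foxp3 ran from 35.8 to 83.5 CPM. In the ICOS FC LN and spleen, 4 T cell markers summed to 3009 and 3350 CPM. Summed over each marker list, CPM in ICOS FC LN, ICOS FC spleen, ICOS WT LN and ICOS WT spleen were 207, 79.1, 172 and 77.0 for 6 B cell genes, mostly Cd74, and 79.3, 57.8, 176 and 76.0 for 6 CD8 T and NK genes, with Ncr1 at 0 in the ICOS FC spleen. Of 6 myeloid genes, S100a8 and S100a9 were at 0 in both ICOS FC libraries, Lyz2 was at 5.54 and 1.38 CPM, and the sum of 159 and 129 CPM was mostly Cst3; 4 erythroid genes summed to 0.115 and 1.77 CPM. The LN libraries of the 2 genotypes shared 30 cell barcodes, and the other pairs shared 1 to 10.

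Calls were made by size. A gene needed 5 CPM or more in either library, a ratio of 2-fold or more and a 95% interval that leaves out equality. The interval of each log2 ratio is the exact conditional Poisson one; it covers counting error only, treats UMIs as independent, and is too narrow where a handful of cells hold most UMIs of a gene. By this rule 610 of 8697 genes compared were higher in the ICOS FC LN (7.01%) and 93 were lower (1.07%). In the ICOS WT pair 579 of 8723 were higher (6.64%) and 59 lower (0.676%). The higher genes were largely shared: 445 were called in both pairs, 73.0% of the ICOS FC list and 76.9% of the ICOS WT list. The lower genes were shared less, 38 in both, 40.9% of the ICOS FC list and 64.4% of the ICOS WT list, and 3 genes called lower in ICOS FC were called higher in ICOS WT: Fos, Fosb and Ccl4.

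The median gene was 0.12 log2 units higher in the LN in ICOS FC, and the split of calls leaned on the scaling. Calls were 86.8% in the higher direction with library totals, 76.4% with TMM factors, 77.5% with median-of-ratios factors and 75.0% with totals that left out ribosomal and mitochondrial genes; those settings moved the median ratio to -0.03, -0.01 and -0.04. Differences between the genotypes were nearly free of this shift, with a median of -0.01. A gene's difference is the ICOS FC log2 ratio minus the ICOS WT log2 ratio, called at 1.5-fold or more with an interval clear of 0. Of 8851 genes, 133 had a larger ratio in ICOS FC (1.5%) and 225 a smaller one (2.54%), while 96.6% of 8568 genes compared in both pairs lay within 1.5-fold. Counts of called list members below are to be read beside these shares. Across those genes, which are not independent replicates, Pearson's r of the 2 contrasts was 0.89.

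**Figure D1:**
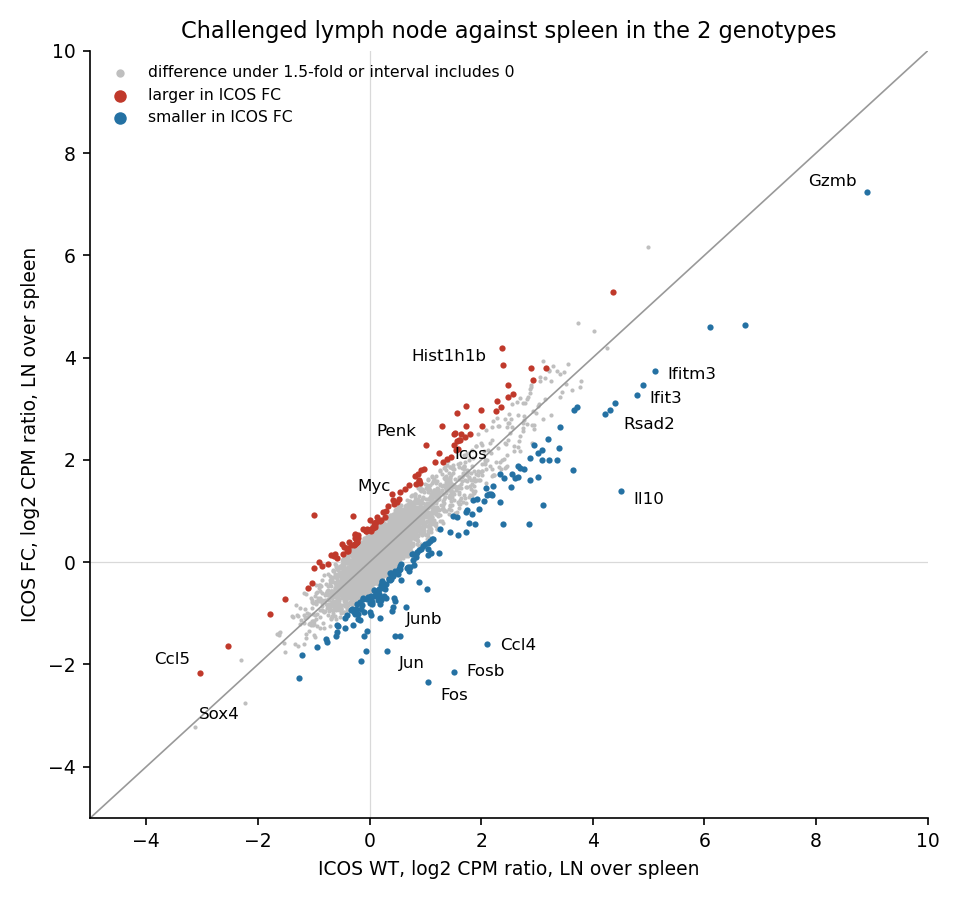
Each point is 1 of 8568 genes, with its log2 CPM ratio, LN over spleen, in the ICOS WT pair on the x axis and in the ICOS FC pair on the y axis; the line marks equal ratios, red marks a larger and blue a smaller called difference in ICOS FC. Most genes lie near the line, Fos, Fosb and Ccl4 lie below 0 on the y axis and above 0 on the x axis, and Gzmb is far up on both axes but below the line.

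A share of the immediate early genes was lower in the challenged LN in ICOS FC, and none was called lower in ICOS WT. Of 16 measured members of the AP-1 and immediate early list, 6 were lower and 1 was higher in the ICOS FC LN, with a median log2 ratio of -0.82 beside 0.12 over all genes; in ICOS WT 4 were higher, none was lower and the median was 0.23. The difference was called smaller for 9 of 16, beside 2.54% of all genes, and larger for none. Fos (chromosome 12, 85473890 to 85477273), an AP-1 subunit, was at 15 CPM in the ICOS FC LN and 75.7 in the ICOS FC spleen, and at 33.7 and 16.3 CPM in the ICOS WT LN and spleen. Its ratio was -2.34 (95% interval -2.53 to -2.15) in ICOS FC, 5.05-fold lower, and 1.05 (0.86 to 1.24) in ICOS WT. The order of tissues was reversed between the labels, and the spleen library labelled ICOS FC was the highest of the 4.

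Fosb (chromosome 7, 19302696 to 19310051), a second subunit of the Fos family, followed the same order, with 6.64 and 29.3 CPM in the ICOS FC LN and spleen and 28.4 and 9.93 in ICOS WT. Its difference between the contrasts was -3.65 (-4.01 to -3.29). Jun, the partner of Fos in AP-1, was at 55.2 and 185 CPM in ICOS FC and 102 and 82.5 in ICOS WT, a difference of -2.05 (-2.18 to -1.91). For Junb, a family member that is abundant in T cells, the levels were 335 and 617 CPM in ICOS FC and 421 and 314 in ICOS WT, a difference of -1.30. Jund, which is known for steadier expression, was at 713 and 965 CPM in ICOS FC and 730 and 789 in ICOS WT, and its difference of -0.32 was under 1.5-fold. Fosl2, a Fos relative outside the naming rule and added after its values were seen, was at 8.14 and 5.66 CPM in ICOS FC and 8.84 and 2.94 in ICOS WT. Its ICOS FC ratio was 0.52, not called, and its smaller difference of -1.06 lost its call on thinning. The difference was thus widest for Fosb and Fos, then Jun, Junb and Fosl2, and under 1.5-fold for Jund.

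Other members of the list varied. Ppp1r15a, which directs a phosphatase to the translation factor eIF2, had a ratio of -1.44 in ICOS FC and 0.45 in ICOS WT; Rgs2, a brake on G protein signalling, had -1.44 and 0.55. Zfp36, which limits inflammatory transcripts, had a smaller difference, -0.90. Btg2, an inhibitor of proliferation, had -1.29 in ICOS FC and -0.81 in ICOS WT, and Dusp2, a phosphatase of MAP kinases, -0.52 and -0.50, with no called difference for either. Rgs1, which limits chemokine receptor signalling, was the 1 member called higher in the LN in ICOS FC, at 1.25 beside 1.07 in ICOS WT. From other lists, Sik1, a kinase induced by cyclic AMP, had -1.94 and -0.16, and Tnfaip3, which limits NF-kB signalling, had a smaller difference of -1.13.

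The differences of Fos, Fosb, Jun, Junb, Ppp1r15a, Rgs2, Sik1 and Zfp36 kept their call in all 12 other scalings and cell selections, among them cells with a Foxp3 UMI and cells thinned to 2000 UMIs, and the list's count of smaller differences was 7 to 10 there. None of 12 heat shock chaperones was called in either pair (medians 0.16 and 0.23). Hspb1, a small heat shock protein outside those 12, had a smaller difference of -2.075, called in all 12 settings. Mitochondrial genes took 3.51% and 4.16% of UMIs in the ICOS FC LN and spleen and 3.79% and 4.27% in ICOS WT. A part of cell handling in the immediate early genes was not tested. Fos was at 51.9 CPM or more in each of the 7 deposited clusters of at least 50 cells in the ICOS FC spleen and ran from 4.77 to 65.6 CPM over 8 clusters in the LN, where cluster 7 was the highest. In the ICOS WT spleen 5 of 6 clusters lay at or below 17.4 CPM. Cluster numbers are separate for the 2 tissues and do not match between them.

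**Figure D2:**
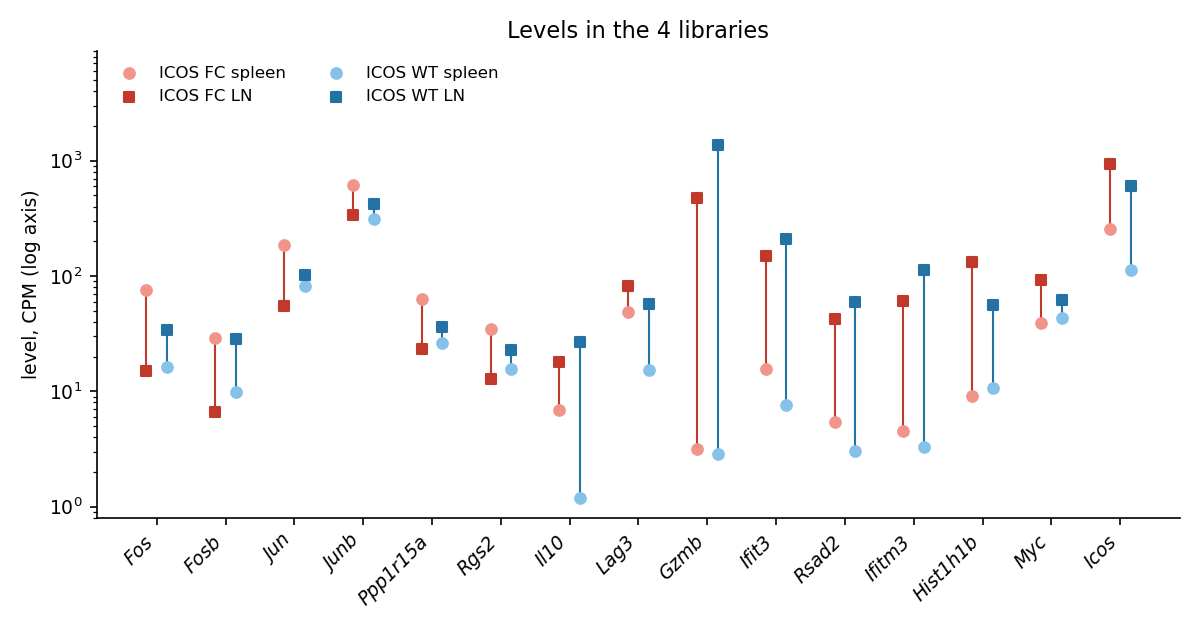
Level in CPM on a log axis of 15 genes in each of the 4 libraries; circles are spleen, squares LN, red ICOS FC and blue ICOS WT, 1 library each, joined within a genotype. For Fos, Fosb, Jun, Junb, Ppp1r15a and Rgs2 the red square lies below the red circle while the blue square lies above the blue circle.

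Interferon-induced genes were higher in the challenged LN in both pairs, by less in ICOS FC. Of 33 type I interferon response genes, 26 were higher and none was lower in the ICOS FC LN (median 1.62), and 29 were higher in ICOS WT (median 2.04). The difference was negative for 33 of 33, with a median of -0.42 beside -0.01 over all genes. It was called smaller for 12, beside 2.54% of all genes. Ifit3 (chromosome 19, 34583531 to 34588731), an antiviral protein that binds partner IFITs, was at 150 CPM in the ICOS FC LN against 15.6 in the spleen, 9.63-fold higher, while ICOS WT had 211 and 7.65 CPM, 27.6-fold higher. Rsad2, the antiviral enzyme viperin, was at 42.7 and 5.45 CPM in ICOS FC and 60.1 and 3.02 in ICOS WT. Isg15, a ubiquitin-like modifier, was at 600 and 76.0 CPM in ICOS FC and 748 and 59.0 in ICOS WT. In each of these genes the ICOS FC LN was the lower LN and the ICOS FC spleen the higher spleen.

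The size of that gap moved with 1 spleen cluster. Spleen cluster 6, with 117 ICOS FC and 47 ICOS WT cells, held Ifit3 at 483 CPM in ICOS FC, against 2.66 to 9.26 in the other ICOS FC clusters (clusters were made from expression, so this level describes the cluster and tests nothing). Without it, chosen after seeing the data, the ICOS FC ratio of Ifit3 went from 3.27 to 4.61 and its difference from -1.52 to -0.86, still called. The difference of Rsad2 went from -1.34 to -0.75, still called, while those of Isg15 (-0.68 to -0.38), Ifit1 (-0.76 to -0.39), Ifit3b (-1.43 to -0.59) and Oasl2 (-0.70 to -0.28) lost their call. The type I list then had 6 called smaller, with 31 of 33 differences negative. Irf7, which amplifies the response, had a ratio of 2.17 in ICOS FC and 2.59 in ICOS WT, with no called difference.

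The promoters of 3 of these genes are shown because the genes were higher together and hold the interferon-stimulated response element that the factors downstream of type I interferon bind. RefSeq windows (GRCm38.p6, 250 bases before to 50 after the start) were searched on both strands for its core, GAAA, any 2 bases, then GAAA. It was found for 18 of 27 matched type I genes and 11 of 13 matched interferon-gamma inducible GTPases, against 294 of 7062 genes compared (4.16%) and 1131 of 32851 windows (3.44%); overlapping matches were counted once per gene. The 250 bases before the start are printed on the gene's strand, with the matched letters, or their reverse complement, in capitals; a match describes the letters and is neither a proven site nor a cause.
Ifit3, chr19:34583279-34583528, plus strand: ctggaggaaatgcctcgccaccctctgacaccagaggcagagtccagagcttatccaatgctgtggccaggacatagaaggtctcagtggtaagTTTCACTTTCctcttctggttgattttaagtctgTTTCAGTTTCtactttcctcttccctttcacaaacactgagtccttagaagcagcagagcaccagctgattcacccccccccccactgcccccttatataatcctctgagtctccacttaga
Rsad2, chr12:26456453-26456702, minus strand: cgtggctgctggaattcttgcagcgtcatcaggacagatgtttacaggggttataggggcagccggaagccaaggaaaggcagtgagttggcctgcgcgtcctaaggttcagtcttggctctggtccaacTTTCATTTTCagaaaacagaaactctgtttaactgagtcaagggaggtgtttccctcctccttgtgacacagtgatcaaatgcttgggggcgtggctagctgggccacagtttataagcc
Isg15, chr4:156200819-156201068, minus strand: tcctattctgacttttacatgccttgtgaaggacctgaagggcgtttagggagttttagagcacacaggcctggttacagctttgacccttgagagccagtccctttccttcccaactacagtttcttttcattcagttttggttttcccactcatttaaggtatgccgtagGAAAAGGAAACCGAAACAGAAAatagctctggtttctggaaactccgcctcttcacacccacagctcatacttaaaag
For the immediate early list the cyclic AMP response element TGACGTCA was searched in the same way and found for 3 of 14 matched genes, against 276 of 7062 compared (3.91%). Those 3 were Ppp1r15a, Btg2 and Dusp1, the last a phosphatase of MAP kinases with a ratio of -0.95 in ICOS FC and -0.24 in ICOS WT, named here for its promoter. The interferon core was found for 2 of the 14, Ppp1r15a and Fosl2, so it is not confined to the interferon lists. The promoters of Ppp1r15a and Dusp1 show the cyclic AMP element near and farther from the start. Only that element is in capitals there, and the interferon core of Ppp1r15a is left in lower case.
Ppp1r15a, chr7:45526269-45526518, minus strand: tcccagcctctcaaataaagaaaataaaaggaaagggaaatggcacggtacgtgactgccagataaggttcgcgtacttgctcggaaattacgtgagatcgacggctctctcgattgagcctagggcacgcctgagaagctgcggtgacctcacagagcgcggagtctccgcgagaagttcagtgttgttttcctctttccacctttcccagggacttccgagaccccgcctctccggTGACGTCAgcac
Dusp1, chr17:26508473-26508722, minus strand: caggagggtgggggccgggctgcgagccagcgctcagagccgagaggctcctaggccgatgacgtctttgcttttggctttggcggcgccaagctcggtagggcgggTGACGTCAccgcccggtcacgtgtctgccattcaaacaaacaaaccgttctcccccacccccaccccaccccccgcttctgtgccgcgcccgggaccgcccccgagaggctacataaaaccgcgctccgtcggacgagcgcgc
The element of Ppp1r15a begins 12 bases before the start and that of Dusp1 143 bases before it. Fos and Fosb hold neither the exact letters TGACGTCA nor a CArG box, the letters bound by serum response factor, in these windows. Variant letters of the elements inside the windows were not searched, nor were letters more than 250 bases before the start. Fos and Fosb may thus hold either element as a variant or farther out. A CArG box was found for 1 of 14 matched genes of the list, Zfp36, against 104 of 7062 compared (1.47%).

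The Ifitm genes, membrane proteins that block viral entry and mark activated T cells, showed the gap outside that spleen cluster. Ifitm3 was at 60.8 and 4.53 CPM in the ICOS FC LN and spleen and 113 and 3.27 in ICOS WT, and Ifitm2 at 25.3 and 7.29 against 131 and 10.5. Their differences were -1.36 and -1.85, and -1.17 and -1.84 without spleen cluster 6. Ifitm1 had no UMI in either spleen library. Taking 3 UMIs as the limit of a count of 0, it was at least 258-fold higher in the ICOS FC LN, but its 474 UMIs there lay in 8 cells, 281 of them in a single cell.

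The GTPases that interferon-gamma induces differed little between the genotypes. Of 20 measured, 16 were higher in the ICOS FC LN (median 1.45) and 18 in ICOS WT (median 1.61), and 2 had a smaller difference, Gbp2b (-0.66) and Gbp8 (-0.67). Iigp1, which attacks the vacuoles of intracellular parasites, was at 232 and 47.7 CPM in ICOS FC and 217 and 53.7 in ICOS WT. Gbp2 and Gbp5 had ICOS FC ratios of 2.17 and 1.94 and differences of 0.12 and 0.32, under 1.5-fold. Cxcl10, a chemokine induced by the same signal, was higher in the LN at 1.49 in ICOS FC and 2.20 in ICOS WT, and its smaller difference lost its call in 4 of 12 settings.

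Effector molecules were higher in the LN in both pairs, and several had a smaller ratio in ICOS FC. A smaller ratio can come from a lower LN level or from a higher spleen level, so levels are given for each. Of 11 suppressive effectors, 8 were higher in the ICOS FC LN with a median of 1.11, and 8 in ICOS WT with 1.54; 3 differences were smaller and 1 was larger. The ICOS FC count of 8 was less firm. It was 5 with TMM factors, in G1 cells and in cells with a Foxp3 UMI, and 6 with median-of-ratios factors. Il10 (chromosome 1, 131019845 to 131024974), the anti-inflammatory cytokine, was at 17.9 CPM in the ICOS FC LN against 6.87 in the spleen, 2.61-fold higher, while ICOS WT had 26.6 and 1.18 CPM, 22.6-fold higher. The ICOS FC LN was below the ICOS WT LN, and the ICOS FC spleen above the ICOS WT spleen. Its difference of -3.09 (-3.67 to -2.52) was called in all 12 settings, from -4.79 to -2.17, although 45% of its ICOS FC LN UMIs lay in 10 cells. The spleen side rests on few UMIs, 32 in ICOS WT and 194 in ICOS FC. Of these, 20 and 171 lay in spleen cluster 1, where Il10 was at 4.85 CPM in ICOS WT and 32.5 in ICOS FC. The ICOS FC ratio itself, 1.39, lost its call in 3 of the 12.

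Lag3, a checkpoint receptor for MHC class II, stood at 81.8 and 49.0 CPM in ICOS FC and 56.8 and 15.3 in ICOS WT, a difference of -1.16. Fgl2, a secreted inhibitor, was at 41.0 and 19.995 against 29.3 and 7.5 CPM, a difference of -0.93. For Lag3 and Fgl2 the ICOS FC LN was above the ICOS WT LN, and the smaller ratio came from the higher ICOS FC spleen. Penk, the enkephalin precursor made by activated Tregs, went the other way, at 58.6 and 11.9 CPM in ICOS FC and 49.2 and 24.4 in ICOS WT. Its difference of 1.29 was 2.97 in cells with a Foxp3 UMI and 0.58, no longer called, with cells thinned to 2000 UMIs, and 60.3% of its ICOS FC LN UMIs lay in 10 cells. Areg, a growth factor for tissue repair, was higher in the LN at 3.36 in ICOS FC and 3.63 in ICOS WT, and Ctla4, which strips costimulatory ligands from other cells, at 2.23 and 2.31, with no called difference.

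Gzmb (chromosome 14, 56258838 to 56262260), the granule protease granzyme B, had the widest ratio among genes with a UMI in both ICOS FC libraries. It was at 480 CPM in the LN against 3.19 in the spleen, 151-fold higher, while ICOS WT had 1362 and 2.83 CPM, 481-fold higher. Spleen levels were close and the ICOS FC LN was the lower of the LN libraries. It had a UMI in 416 of 2066 ICOS FC LN cells. The difference of -1.67 (-2.11 to -1.23) was -0.92 in cells deposited as G1 and -0.48, no longer called, when each cell weighed equally. Within the LN it ran from 5.98 CPM in cluster 5 to 1000 in cluster 0 and 1260 in cluster 7 in ICOS FC. In ICOS WT it was at 3266 CPM in cluster 0 and 273 in cluster 7. Cluster 7, with 57 ICOS FC and 66 ICOS WT cells, thus had the reverse order of the LN libraries.

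Gzma, granzyme A, was at 69.3 and 1.77 CPM in ICOS FC and 19.0 and 0.92 in ICOS WT, and 83.5% of its UMIs in the ICOS FC LN lay in 10 cells; its larger difference of 0.93 lost its call in 4 of 12 settings. Nkg7, a granule membrane protein of cytotoxic cells, was at 36.2 and 32.0 CPM in ICOS FC and 123 and 51.6 in ICOS WT, a difference of -1.06. Nkg7 is itself the leading gene of the CD8 T and NK marker sums, so those sums say little of it; the part of such cells in the granule genes was not tested. Prf1, perforin, was at 10.9 and 6.69 CPM in ICOS FC with the same ratio as ICOS WT within counting error (difference -0.01, -0.43 to 0.41).

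Genes of cell growth went the other way. All 22 ribosome biogenesis and growth genes had a positive difference, with a median of 0.32 beside -0.01 over all genes. Only 2 of these differences were called, where 1.5% of all genes were called larger. The median ratio was 0.76 in ICOS FC and 0.42 in ICOS WT, and 6 were higher in the ICOS FC LN against 1 in ICOS WT. The count of 6 was less firm: it was 3 under each other scaling and 2 on thinning or when each cell weighed equally, and Ncl and Srm, both just past 2-fold, lost their call in 10 and 9 of 12 settings. Myc, which drives that programme, was at 92.5 CPM in the ICOS FC LN against 39.3 in the spleen, while ICOS WT had 62.3 and 43.3 CPM. Its difference of 0.71 (0.54 to 0.88) was called in all 12 settings. Odc1, the first enzyme of polyamine synthesis and a Myc target, was at 176 and 43.5 against 154 and 58.6 CPM, a difference of 0.63 that lost its call in 5 settings. Nucleolar proteins had uncalled differences of 0.29 for Ncl, 0.33 for Ddx21, 0.46 for Nop58 and 0.47 for Dkc1. The difference was positive in 21 or 22 of 22 genes in each of the 12 settings.

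Cell division genes were higher in both LN libraries. In ICOS FC 22 of 25 were higher (median 1.71) and in ICOS WT 21 (median 1.40), and 20 differences were positive with 1 called. With 1.5% of all genes called larger, 1 call is not read as a trait of the list. The median difference of the list was 0.23 beside -0.01 over all genes. Top2a, which untangles DNA for mitosis, was at 150 and 15.3 CPM in ICOS FC and 85.3 and 11.7 in ICOS WT; Birc5, survivin, had the called difference, 0.64. Hist1h1b (chromosome 13, 21779883 to 21780625), a linker histone made in S phase, was at 132 and 9.13 CPM in ICOS FC and 55.9 and 10.7 in ICOS WT, ratios of 3.85 and 2.38. Of 22 histone cluster genes, a list chosen after these values were seen, 14 were higher and 2 lower in the ICOS FC LN, and 5 differences were larger and 2 smaller.

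The gap in division genes rested on which cells were counted. Among cells with a Foxp3 UMI the median difference of the list was -0.07, 3 members were called smaller and none larger, and that of Birc5 was -0.49. Among these cells 21 of 25 were higher in the ICOS FC LN. The count of 22 over all cells became 13 on leaving out the 5% of cells richest in UMIs, with 9 differences called larger; it was 14 when each cell weighed equally, 11 of 24 on thinning and 2 of 18 in G1 cells. Most UMIs of such genes lie in few cells: 124 of 2066 ICOS FC LN cells had a Hist1h1b UMI. The deposited phases placed 76.8% of ICOS FC LN cells and 57.6% of spleen cells in G1, so more spleen than LN cells were placed outside G1 while division genes were higher in the LN; the scoring of phases is not stated in the labels or files read.

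Treg identity genes showed no called difference between the pairs. Of 16 identity genes, 9 were higher in the ICOS FC LN (median 1.19) and 8 in ICOS WT (1.05). Il2ra, the high-affinity chain of the IL-2 receptor, was at 591 and 165 CPM in ICOS FC and 448 and 161 in ICOS WT. Itgae, the integrin CD103 that binds epithelial cadherin, was at 123 and 16.2 against 103 and 13.1 CPM. Ikzf2 and Nrp1, linked to thymic origin, had ICOS FC ratios of 0.32 and -0.08, under 2-fold. Of 9 TNF receptor genes 5 were higher, led in level by Tnfrsf4, the receptor OX40, at 1381 and 339 CPM. Tnfrsf9, the activation marker 4-1BB, was at 350 and 55.1 CPM. Tnfrsf8, the receptor CD30, had the 1 larger difference of that list, 0.69, which lost its call in 6 of 12 settings. The list of CD28 family and ligand receptors holds Icos and Ctla4 beside receptors of other families. In it 3 of 10 were higher in ICOS FC (median 0.49) and 5 in ICOS WT (0.78), and 8 differences were negative. The 3 called smaller there were Lag3, Havcr2 and Tigit, an inhibitory receptor named after its values were seen, whose call of -0.59 was lost in 10 of 12 settings. The 14 IL-2 receptor and STAT5 genes had 6 higher in ICOS FC and medians of 0.88 and 0.84. That count was 4 under each other scaling. Socs2, a target of STAT5, was at 1.58 in ICOS FC and 1.65 in ICOS WT.

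Of 12 effector transcription factors, 5 were higher in the ICOS FC LN (median 0.66) and 7 in ICOS WT (1.07), with 3 smaller differences: Bhlhe40 (-1.21), Bcl6 (-0.83) and Id2 (-0.67). Prdm1, Irf4, Batf and Maf, which shape effector Tregs, had ICOS FC ratios of 1.60, 1.61, 1.28 and 1.38, none with a called difference. Havcr2, the inhibitory receptor TIM-3, was at 13.7 and 0.566 CPM in ICOS FC and 17.7 and 0.258 in ICOS WT; its difference lost its call in 5 of 12 settings. For Icos the difference was -0.57 (-0.64 to -0.50), just under 1.5-fold.

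Some genes of the resting state were lower in the LN. Of 14 resting and homing genes 4 were lower in ICOS FC (median -0.62) and 3 in ICOS WT (-0.66), and none was higher. Over the 12 settings the ICOS FC count ran from 1 in G1 cells (median -0.34) to 5 with totals without ribosomal and mitochondrial genes. It was 2 on thinning and 2 without spleen cluster 4 and LN clusters 6 and 7 (median -0.39). Tcf7 lost its ICOS FC call in G1 cells and on thinning. Tcf7, a factor of resting T cells, was at 100 and 239 CPM in ICOS FC and 148 and 241 in ICOS WT, ratios of -1.25 and -0.71; Lef1, its relative, had -1.01 and -0.94, and its ICOS FC call was lost in 7 of 12 settings. Sox4, found in young T cells, was at 3.64 and 24.4 CPM in ICOS FC and 3.26 and 15.3 in ICOS WT. Of 15 PI3 kinase brakes and FoxO targets, 3 were lower in each pair, among them Pik3ip1, an inhibitor of PI3 kinase, at -1.14 in ICOS FC and -1.23 in ICOS WT. In ICOS FC none was called without the 5% of cells with most UMIs, in G1 cells or when each cell weighed equally, and 1 on thinning; Pik3ip1 lost its call in 4 of 12 settings. No difference in either list was called, including that of Klf2, a FoxO target, at 0.29.

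Of 15 chemokine receptor and egress genes, 8 were higher and 1 was lower in the ICOS FC LN. Ccr2, a receptor for inflammatory chemokines, had a ratio of 2.28 in ICOS FC and a difference of -0.31. Ccr10, a skin-homing receptor, was at 14.3 and 1.73 CPM in ICOS FC and 10.7 and 3.24 in ICOS WT, a larger difference of 1.31. Cxcr6, which guides T cells in tissue, was at 20.02 and 7.25 against 50.1 and 8.68 CPM, a smaller difference of -1.06. Ccl5, a chemokine of effector cells, was lower in the LN, at 43.9 and 197 CPM in ICOS FC and 16.7 and 136 in ICOS WT, with 61.1% of its ICOS FC LN UMIs in 10 cells. Ccl4 was at 4.04 and 12.3 CPM in ICOS FC and 5.25 and 1.21 in ICOS WT, but 308 of its 347 UMIs in the ICOS FC spleen lay in 1 cell, and among cells with a Foxp3 UMI its ICOS FC ratio was 2.10 in place of -1.60.

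**Figure D3:**
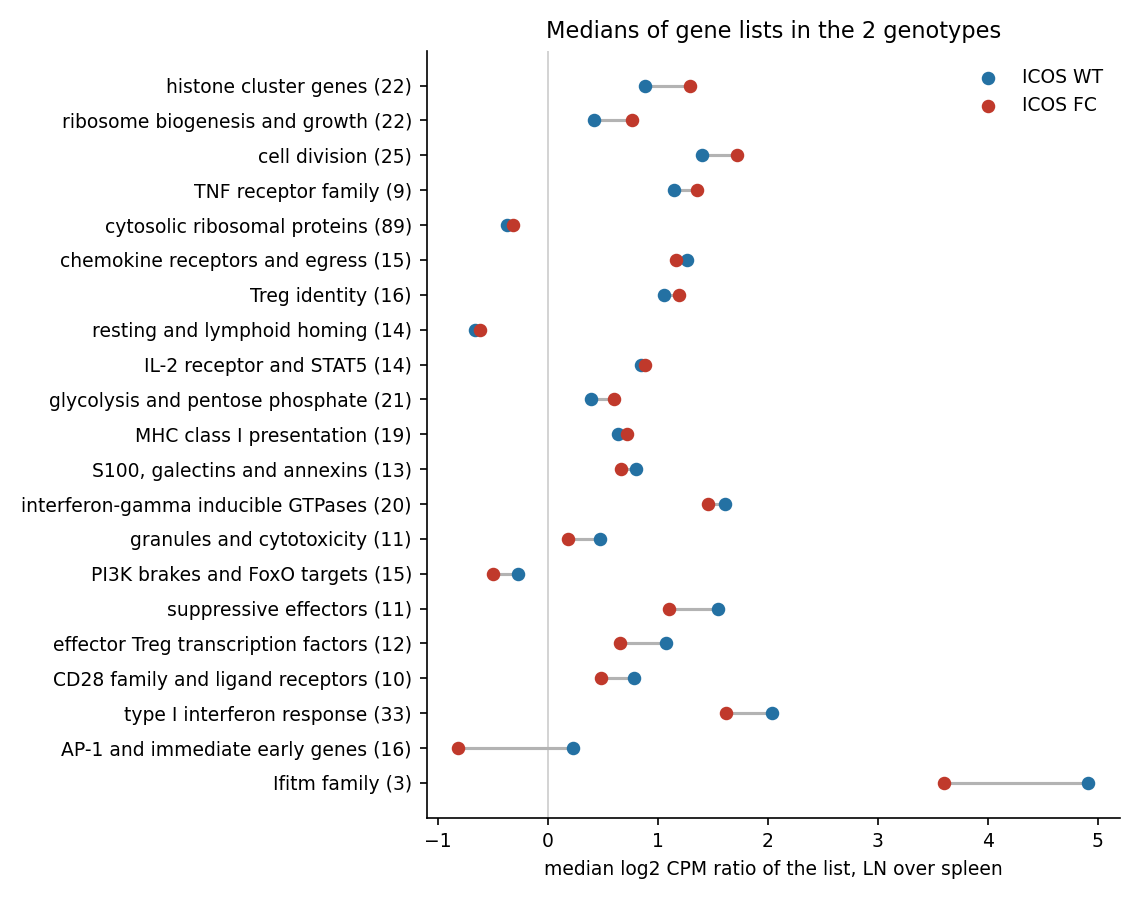
Median log2 CPM ratio, LN over spleen, of 21 gene lists in ICOS FC (red) and ICOS WT (blue), ordered by the median of the members' differences, with the number of members measured in ICOS FC in brackets. Among the lists drawn, the AP-1 list has a median below 0 in ICOS FC (-0.82) and above 0 in ICOS WT (0.23); of the lists not drawn, chemokines and cytokines (-0.22 and 0.54), follicular Treg genes (-0.19 and 0.03), T cell markers (-0.14 and 0.11) and conventional CD4 T markers (-0.34 and 0.03) have the same signs.

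By the bound of the interval nearest equality, the genes highest in the ICOS FC LN were, beside Ifitm1, Gzmb and Gzma, among others the interferon-inducible Ifi211 (10.1 and 0.142 CPM) and Ifi204 (9.69 and 0.389), the replication factor Mcm10 (8.08 and 0.354), the mitotic kinase Pbk (13.6 and 0.531) and Gcnt1, which builds the core of selectin ligands (29.1 and 1.59). Gcnt1 was as high in ICOS WT, with a difference of -0.07. The genes lowest in the LN included Pdlim4 (1.10 and 10.3 CPM), Frat2, which binds the kinase GSK3 (7.5 and 36.1), the calcitonin gene-related peptide co-receptor Ramp1 (19.0 and 64.2) and the immediate early genes above. The ratio of Pdlim4, -3.23, was 0.03 without spleen cluster 4 and LN clusters 6 and 7. Larger differences were also met in the cell cycle genes Esco2 (1.80), Melk (1.35) and Kif20b (0.93), in the cell cycle inhibitor locus Cdkn2a (2.04), and in Rragd, which links amino acids to mTORC1 (1.19); the calls of Esco2 and Cdkn2a were lost in 3 and 4 of 12 settings. Smaller ones were met in the small heat shock protein Hspb1 (-2.07), the leukotriene receptor Ltb4r1 (-1.97) and the galectin Lgals7 (-2.64).

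**Figure D4:**
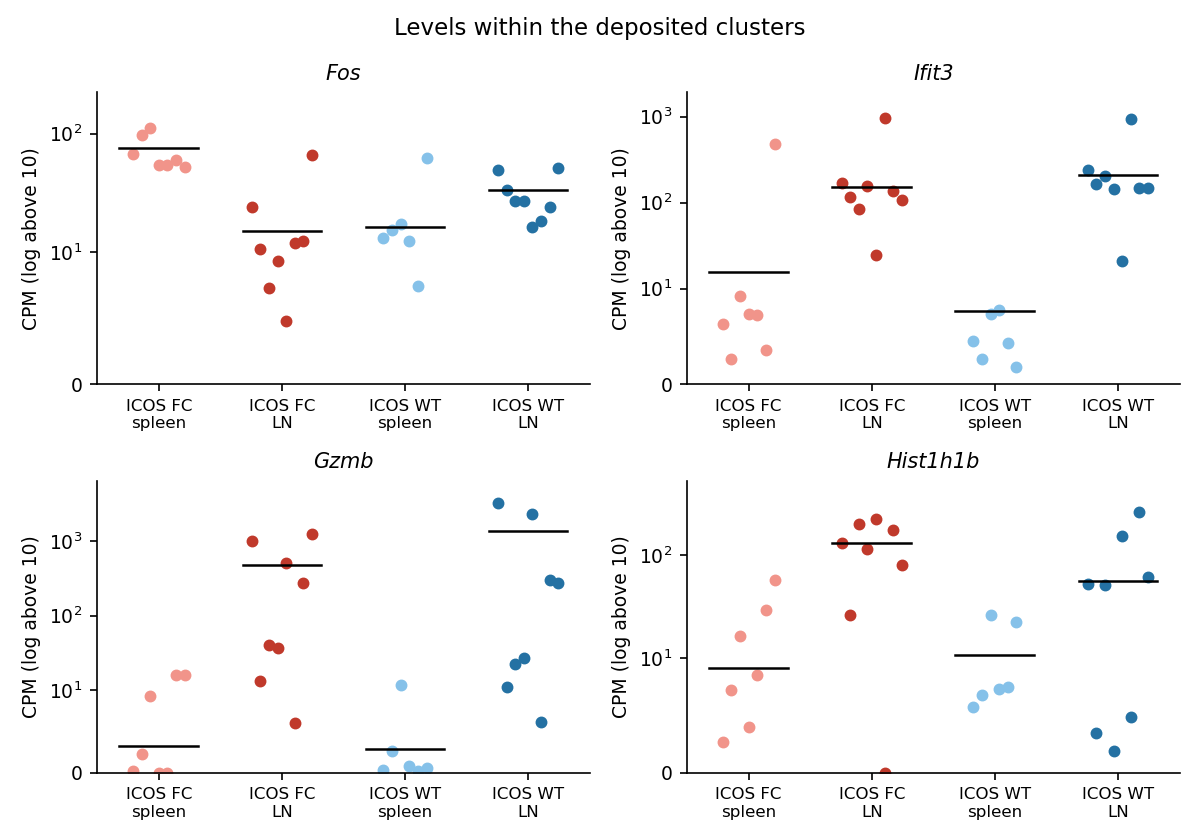
Level in CPM (log scale above 10) of 4 genes in each deposited cluster of at least 50 cells, with a point per cluster and a black line at the library's level. Fos points of the ICOS FC spleen all lie at 51.9 or higher, 7 of the 8 ICOS FC LN points lie at or below 24.2, and 1 spleen point at 483 stands apart for Ifit3.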

How the data were processed

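Sorted Tregs were profiled by 10x Genomics 3' single-cell RNA sequencing, 1 library per genotype and tissue. The authors deposited natural log values, 1 plus UMIs per 10000 of a cell, with UMI counts per cell, the percent of mitochondrial UMIs, cluster numbers and cell cycle phases, per the file headers and values. Cell Ranger 4.0.0, R 3.6.1, Seurat 3.0, GRCm38.p6 and mm10 are named in the submitters' processing notes; what each was used for, which filters applied and whether doublets were removed is not stated there, and no doublet caller was run. The labels speak of 12000 cells prepared. Cell names KO and Control were matched to ICOS FC and ICOS WT by their wording alone.

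Inverting the log and multiplying by the count of a cell gave whole UMIs, within 0.001, for all 17846401 spleen and 8798056 LN values, which summed to the deposited total in each of 10912 and 3963 cells. UMIs were summed per library and scaled to CPM. With 1 library per group no test was run: ratios carry exact conditional Poisson 95% intervals, and differences between contrasts carry log-normal intervals from 4 counts with 0.5 added. List medians use 0.5 CPM added. The code was tested on simulated data (Python 3.11.15, numpy 2.4.6, scipy 1.17.1, pandas 2.3.3, matplotlib 3.10.9). Named genes were Icos, Foxp3, the 12 highest and 12 lowest ratios, the 15 highest and 15 lowest differences, up to 5 members of each list by difference and 5 by ratio, members of at least 100 CPM, and genes past 1.5-fold in opposite directions. The gene lists and members were chosen with earlier results of these data known. Clusters are the deposited ones. Antigen receptor segments, haemoglobin, mitochondrial, Xist, Y-linked and model-named genes stayed out of the ranking. Promoters are from RefSeq and coordinates from GENCODE M21.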

Additional observations from a re-analysis of the deposited data

Results flagged for a closer look

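Genes past 1.5-fold in opposite directions in the ICOS FC and ICOS WT contrasts, each with an interval clear of equality, were singled out. With 1 library per group the difference was not tested. It was -3.65 for Fosb, -3.38 for Fos and -3.70 for Ccl4. For Ccl4, 308 of 347 UMIs of the ICOS FC spleen lay in 1 cell, and the difference was 5.10 in cells with a Foxp3 UMI. A pair of weakly expressed genes had the same order: Klf4, a factor of quiescent cells, was at 2.83 and 5.31 CPM in the ICOS FC LN and spleen and 3.19 and 2.10 in ICOS WT (-1.51), and Cdk5rap1, a tRNA-modifying enzyme, was at 5.94 and 11 against 10.7 and 6.81 CPM (-1.53). The gene model Gm47283, on chromosome Y at 90784738 to 90816464 (GRCm38), had the opposite order, with 102 and 53.8 CPM in ICOS FC and 25.4 and 50.4 in ICOS WT, a difference of 1.91. The Y-linked gene Ddx3y was at 57.2 and 65.1 CPM in ICOS FC and 57.8 and 62.8 in ICOS WT, and Kdm5d at 24.4 and 29.3 against 26.5 and 29.8. Whether Gm47283 should move with them was not tested.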

How the results depend on the processing

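No paired analysis was possible because each group was 1 library and the labels carry no replicate numbers. Thresholds moved the counts by construction. The 610 higher genes became 323 at a minimum of 20 CPM, 1167 with none and 1356 at 1.5-fold, and the 93 lower genes 37, 289 and 367. The 133 larger differences became 39, 232 and, at 2-fold, 18, and the 225 smaller ones 67, 427 and 67. Scaling moved only the lower genes by over 1.5 times, to 156 with TMM factors, 149 with median-of-ratios factors and 194 without ribosomal and mitochondrial genes. In cells with a Foxp3 UMI there were 184 lower genes, 215 larger differences (53 shared with the 133) and 443 smaller (132 shared with the 225). Thinning gave 224 larger differences, of which only 47 were shared with the 133. G1 cells gave 376 higher genes (329 shared with the 610), and the mean of each cell's CPM 60 lower genes (53 shared with the 93). The cause was not tested.

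Directions reversed mainly among G1 cells, a selection by a cell cycle label that is usually scored from such genes. The ICOS FC ratio there was -0.10 for Birc5, 0.82 for Ccl4, -0.17 for Cdk1, -0.76 for Hist1h1b, -1.0 for Hist1h2ae, -0.12 for Hist2h2ac, -0.32 for Kif20a, -0.45 for Pbk and -1.42 for Stmn1, and the difference -0.22 for Gzma, -0.0054 for Hist1h1b, -1.15 for Hist1h2af, -0.22 for Hist2h2ac and -0.060 for Kif20a. The median difference was -0.068 for cell division and -0.22 for histones, whose median ratio was -0.33. In cells with a Foxp3 UMI the ratio of Ccl4 was 2.10, and differences were 5.10 for Ccl4, -0.49 for Birc5, 0.99 for Il2, -0.15 for Tnfrsf8, and in the median -0.068 for cell division and -0.050 for histones; the cause was not tested. Without spleen cluster 4 and LN clusters 6 and 7 the ratio of Pdlim4 was 0.025. Hist2h2ac was picked after its values were seen. Leaving out shared barcodes and leaving out spleen cluster 6 were chosen after seeing the data. Of 189 calls of genes followed, 104 were kept in all 12 settings that keep the thresholds; 51 were lost in G1 cells, 48 on thinning and 36 in cells with a Foxp3 UMI. Depth limits genes with few spleen UMIs, such as Ifi211 with 4.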
